A study of Epinephelus fuscoguttatus x Epinephelus lanceolatus with 9 samples.

Results

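The respiratory chain was represented by 83 of the 22344 genes counted in intestine from pearl gentian grouper, which is bred by crossing Epinephelus fuscoguttatus with Epinephelus lanceolatus. Members were chosen by symbol: 70 nuclear genes whose symbols begin with nduf, sdha to sdhd or atp5 (sdhaf assembly factors included), and the 13 protein-coding genes of mitochondrial DNA. The same rule covers nuclear genes of complex III (uqcr, uqcc) and nuclear subunits of cytochrome c oxidase (cox4 to cox8), but no row matched those symbols and these genes were not analysed here. Complex III and most of complex IV are therefore seen through their mitochondrially encoded subunits alone.

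RNA sequencing covered 9 libraries of intestine, 3 in each of the groups FM, SBM and Drug. All 3 groups share the hybrid and the tissue, and the labels give no strain, age, dose, feeding time or gut segment for any of them. In work on fish feeds FM usually stands for fish meal and SBM for soybean meal, although the labels leave both unexplained, and the series title names Lithospermum erythrorhizon, a medicinal herb, without saying what base diet the Drug fish received. Whether replicate libraries are separate animals is not stated, and p-values therefore cover the spread between these 9 libraries, part of which may be technical.

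The respiratory chain passes electrons from NADH through complex I and from succinate through complex II to coenzyme Q, then through complex III and cytochrome c to complex IV, which reduces oxygen. Complexes I, III and IV pump protons across the inner mitochondrial membrane, and complex V, ATP synthase, uses the gradient to make ATP. Except for complex II, each complex joins subunits encoded by nuclear genes with subunits encoded by mitochondrial DNA, and assembly factors help to build the complexes without staying in them. Enterocytes use much of this ATP for nutrient and ion transport.

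The libraries held 32.9 to 35.5 M counts, so counting error was small for all but the lowest members. FM replicate 3 stood apart in hepatocyte markers: 14 of 28 listed genes were in the table, and their summed level was 24285 CPM there against 17.0 to 18.1 CPM in the other FM libraries, 38.5 to 108 CPM in SBM and 213 to 1237 CPM in Drug. Most of the Drug sums was apobb.1 (131, 548 and 946 CPM in replicates 1 to 3) and apoa2 (36.1, 656 and 141 CPM). The highest of the other listed genes in Drug, tfa, was at 10.3 to 17.0 CPM, against 2973 CPM in FM replicate 3. CPM stands for counts scaled to a common library size after adjustment of the libraries by TMM (trimmed mean of M values). Summed proliferation markers (20 of 22 in the table) were 117 to 165 CPM in FM, 214 to 328 CPM in SBM and 380 to 610 CPM in Drug. Brush border markers of enterocytes (12 of 34) summed to 3934 to 4678, 5247 to 10532 and 11460 to 14071 CPM in the same order of groups. A large part of the Drug sums was fabp2, at 402 to 836, 782 to 2994 and 5111 to 6598 CPM. Of the 9 tested, 9 were higher in SBM than in FM, 8 in Drug than in FM and 7 in Drug than in SBM. Their median log2 fold changes were 0.63, 0.73 and 0.12. Markers of protein-absorbing enterocytes (12 of 15) summed to 18452 to 25057, 8962 to 22554 and 7974 to 10716 CPM. A large part of these sums was ctsl.1, at 9294 to 12996, 3124 to 9834 and 3085 to 4883 CPM. The protein-absorbing list was mixed: 4 of the 12 were higher in SBM than in FM and 3 in Drug than in FM (median log2 fold changes of -0.22 and -0.84). Exocrine pancreas markers (5 of 22) summed to 2298 CPM in FM replicate 3, 215 and 253 CPM in the other FM libraries, 619 to 3146 CPM in SBM and 510.4 to 2349 CPM in Drug. Markers of B and plasma cells (8 of 19) summed to 339 to 380.2, 306 to 346 and 249 to 345 CPM in FM, SBM and Drug, with all 8 lower in SBM and in Drug than in FM (median log2 fold changes of -0.88 and -1.02). Most of each of these sums was xbp1, at 245 to 321, 253 to 318 and 221 to 291 CPM. Smooth muscle markers (14 of 22) summed to 8894 to 16608, 13428 to 25580 and 9746 to 14533 CPM, with 12 of the 13 tested higher in SBM than in FM (median 0.58). No gene of these 7 lists that was in the table was at 0 in all libraries, and the part of these cell contents in the results on the respiratory chain was not tested. In bulk tissue, fewer cells of a type and less RNA per cell cannot be told apart.

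Most nuclear subunit genes lay higher in SBM and in Drug than in FM, with median log2 fold changes of 0.46 and 0.52 over the 58 of them. The 12 assembly factors had medians of 0.045 and 0.17, and the 13 mitochondrially encoded genes -0.17 and 0.19. The 70 nuclear genes summed to 5476, 5114 and 5634 CPM in FM replicates 1 to 3, to 6732, 8033 and 7829 CPM in SBM, and to 8681, 7084 and 6919 CPM in Drug. The FM values were all below the SBM and Drug values, and those of SBM and Drug overlapped. The 13 mitochondrially encoded genes summed to 33893, 35725 and 47420 CPM in FM, to 29912, 40864 and 34108 CPM in SBM, and to 42106, 35738 and 38677 CPM in Drug, with overlap between all groups.

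In SBM against FM, 0 of the 83 members passed edgeR's quasi-likelihood test at an adjusted p under 0.05, beside 0.592% of the 17731 genes tested (0.446% higher and 0.147% lower). With library totals in place of TMM the genes passing split as 42 higher and 57 lower, where TMM gave 79 and 26. The smallest adjusted p was 0.0539, for atp5f1b. At an unadjusted p under 0.05, 39 nuclear genes were higher and 0 lower, beside 10.9% of all genes higher and 9.67% lower. The median SE was 0.17 for the nuclear genes and 0.27 for all genes, so the same difference gives a smaller p in most members. Shares of all genes are thus a rough yardstick, here and in Drug against FM (0.17 and 0.27). DESeq2 called 14 members, all higher, beside 5.39% of all genes called higher and 3.45% called lower. The log2 fold change was positive in 65 of 70 nuclear genes (50.5% of all genes), with a median of 0.45 beside 0.0056 over all genes. The SBM and FM values did not overlap in 45 nuclear genes with SBM higher (11.1% of all genes) and in 1 with SBM lower (11.7%). With the replicate number as a block, as same-numbered libraries may be paired, 295 genes passed in place of 105, and the members passing were still 0.

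In Drug against FM, 7 nuclear genes rose and 0 fell, beside 4.38% of all genes tested that passed (2.86% higher and 1.52% lower). At an unadjusted p under 0.05, 46 nuclear genes were higher and 0 lower, beside 12% and 11.8% of all genes. The log2 fold change was positive in 68 of 70 nuclear genes (46.2% of all genes), with a median of 0.49 beside -0.045 over all genes. The groups did not overlap in 50 of the 70, all with Drug higher (16.6% of all genes, with 16.2% lower). All 7 calls lay close to the threshold, between adjusted p values of 0.0326 and 0.0494. The count was 0 with FM replicate 1, FM replicate 2, SBM replicate 3 or any 1 Drug library left out. In these settings 10 to 281 of all genes passed, in place of 777. The member count was 8 without SBM replicate 2 and 14 without SBM replicate 1, where 1211 and 1711 of all genes passed. Without FM replicate 3 it was 1, ndufa4a, which is not among the 7, and 568 of all genes passed. DESeq2 called 28 members, all higher, beside 7.75% of all genes called higher and 5.39% called lower.

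In Drug against SBM, 0 members passed, beside 0.0395% of all genes tested (7 genes, all lower in Drug). At an unadjusted p under 0.05 there were 2 members, both mitochondrially encoded and higher in Drug, beside 5.15% of all genes higher and 7.97% lower. DESeq2 called 0, beside 1.27% of all genes higher and 2.58% lower. Nuclear log2 fold changes ran from -0.22 to 0.59 with a median of 0.063. Their direction rested on Drug replicate 1 and SBM replicate 1. With all libraries 48 of 70 were positive (49.3% of all genes). Without Drug replicate 1 it was 18 of 70, with a median of -0.082, and without SBM replicate 1 it was 37 of 70, with a median of 0.0068. The 3 comparisons share libraries, so the pattern in one is not independent of the others.

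**Figure D1:**
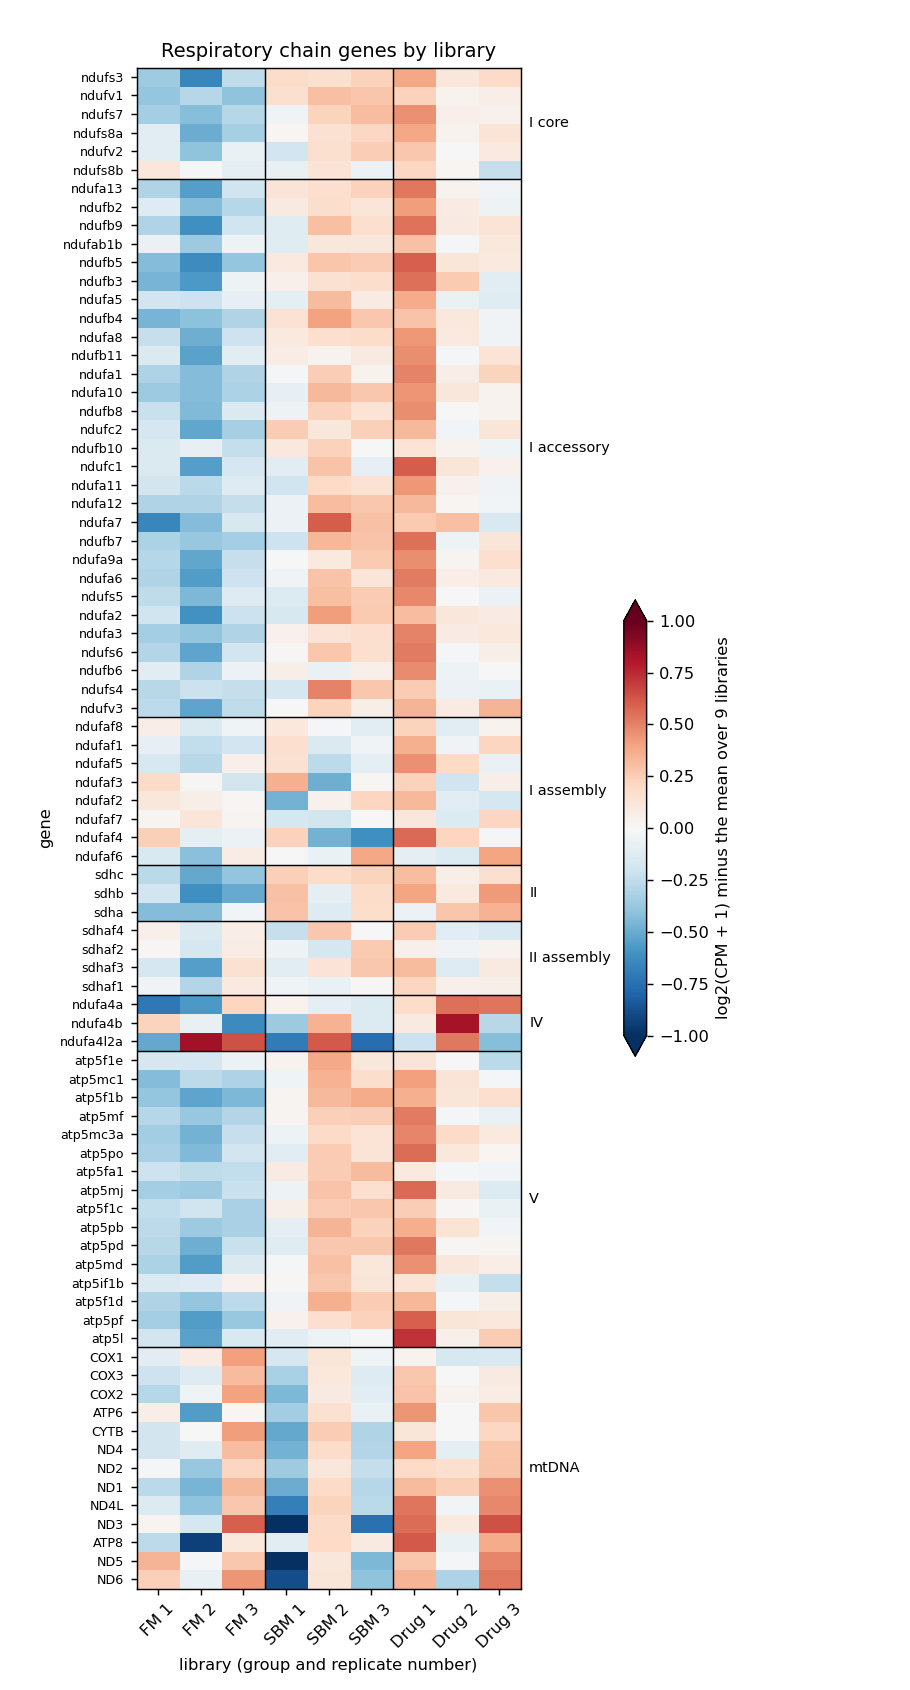
Level of 82 of the 83 genes (rows, grouped by complex and ordered by mean FPKM) in each of the 9 libraries (columns), as log2(CPM + 1) minus the gene's mean over the libraries, with the colour scale ending at -1 and 1. With the gene not drawn counted in, FM replicate 2 is the lowest library for 51 of the 70 nuclear genes and Drug replicate 1 the highest for 48, while SBM replicate 1 is the lowest for 10 of the 13 mitochondrially encoded genes (bottom block).

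Libraries within a group moved most members together. Drug replicate 1 had the highest level of the Drug group in 62 of the 70 nuclear genes, FM replicate 2 the lowest of the FM group in 54, and SBM replicate 1 the lowest of the SBM group in 51. The 83 rows are thus far from 83 separate measurements. Drug replicate 1 also had the highest summed proliferation markers, 610 CPM against 396 and 380 CPM in the other Drug libraries. SBM replicate 1 had the highest summed stress genes (14 of 19 listed genes in the table), 2970 CPM against 703 to 1013 CPM in the other 8 libraries. Most of that sum was hspa5, dusp1, fosab and junbb (874, 593, 520 and 395 CPM), and egr3, hspa1b, hsp90aa1.1 and hsp90aa1.2 were not highest in this library. The part of the proliferation or stress genes in the members' levels was not tested.

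Library scaling set part of the size of the SBM difference. As a plain share of all counts, nuclear members held 0.590%, 0.571% and 0.553% in FM, 0.589%, 0.789% and 0.746% in SBM, and 0.871%, 0.723% and 0.691% in Drug. On that scale SBM replicate 1 lay among the FM libraries, and its TMM factor of 0.876 was the lowest of the 9. Scaling by library totals moved the median of all genes to -0.18 in SBM against FM, 0.10 in Drug against SBM and -0.12 in Drug against FM. Relative to that shift the medians of the 58 nuclear subunits were 0.47, 0.058 and 0.56, close to 0.46, 0.068 and 0.56 under TMM on the same relative scale.

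Complex I is the entry point for electrons from NADH, and 7 genes for nuclear core subunits of its peripheral arm, which takes electrons from NADH to the quinone, were present. All 7 had a positive log2 fold change in SBM against FM (median 0.44) and in Drug against FM (median 0.50). The smallest, 0.0043 and 0.021, were those of ndufs8b, which had 6 to 21 counts per library, so its sign carries little. The gene ndufs3, a core subunit of the peripheral arm and at 94.3 FPKM the highest of these genes per length, was at 73.1, 59.4 and 78.3 CPM in FM, 106, 105 and 111 CPM in SBM, and 123, 102 and 107 CPM in Drug. FM lay apart below both other groups. It rose in Drug against FM from 70.3 ± 9.76 to 111 ± 11.1 CPM (SD, n = 3), a log2 fold change of 0.65 ± 0.15 (SE) with an adjusted p of 0.0483, and its log2 fold change in SBM against FM was 0.61 ± 0.15 with an adjusted p of 0.0971.

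The gene ndufv1, which encodes the subunit that binds NADH and the flavin, was at 92.2, 98.8 and 91.0 CPM in FM, 135, 149 and 146 CPM in SBM, and 142, 123 and 127 CPM in Drug. FM lay apart, and the log2 fold changes of 0.61 ± 0.13 for SBM and 0.47 ± 0.13 for Drug gave adjusted p values of 0.0723 and 0.0784. A second copy of ndufs8, ndufs8b, was at the floor of detection, at 0.18 to 0.60 CPM, where ndufs8a was at 59.9 to 111 CPM, and near-identical copies can share reads.

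The 29 accessory genes of complex I encode subunits that surround the core and stabilise it. All 29 had positive log2 fold changes against FM in both SBM (0.18 to 0.73, median 0.48) and Drug (0.20 to 0.78, median 0.52). FM did not overlap the higher group in 24 and 27 of them, beside 11.1% and 16.6% of all genes. Per length their mean levels ran from 13.3 FPKM for ndufv3 to 176 FPKM for ndufa13.

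Of these, ndufb5, a membrane-arm subunit, had the largest difference of any member in Drug against FM. It was at 52.6, 45.7 and 54.3 CPM in FM, 76.7, 86.8 and 85.3 CPM in SBM, and 109, 77.9 and 76.5 CPM in Drug. FM lay apart, and the high Drug mean owed most to replicate 1. It rose in Drug against FM by 0.78 ± 0.17 on the log2 scale (adjusted p 0.0407), with 0.70 ± 0.17 in SBM against FM (adjusted p 0.0912). The gene ndufv3, a small subunit near the flavin site, was at 23.7, 19.5 and 23.8 CPM in FM, 28.4, 33.6 and 29.8 CPM in SBM, and 36.4, 30.3 and 36.3 CPM in Drug. It rose in Drug against FM by 0.62 ± 0.15 (adjusted p 0.0494), and the SBM values lay between the other groups with overlap on the Drug side.

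Among accessory genes below the threshold, ndufb4, a membrane-arm subunit, had the smallest p of complex I in SBM against FM. Its levels were 35.1, 36.6 and 39.5 CPM in FM, 53.9, 64.9 and 59.0 CPM in SBM, and 59.6, 52.5 and 47.7 CPM in Drug, with FM apart (log2 fold change 0.68 ± 0.14 for SBM, adjusted p 0.0666). The gene ndufa7, an accessory subunit of the peripheral arm, had the largest log2 fold change of any member in SBM against FM, 0.73 ± 0.22, but its SBM libraries spread from 27.2 to 43.8 CPM against 17.7 to 25.3 CPM in FM (adjusted p 0.127). The gene ndufa1, needed for complex I assembly in mammals, was at 33.0 to 36.3 CPM in FM and 47.2 to 63.8 CPM in Drug (0.63 ± 0.16, adjusted p 0.0537). The abundant ndufa13, also known in mammals as GRIM-19, was at 71.4 to 91.3 CPM in FM, 115 to 124 CPM in SBM and 103 to 152 CPM in Drug. In Drug against SBM none of the 29 separated the groups, and the interval of the difference for ndufb5, for example, ran from -0.31 to 0.47 on the log2 scale (95% confidence interval).

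Of the 8 assembly factors of complex I that share the ndufaf name, 4 had a positive and 4 a negative log2 fold change in SBM against FM, with a median of 0.0085. In Drug against SBM and in Drug against FM 7 of 8 were positive, with medians of 0.15 and 0.18. None passed edgeR's test in any comparison, and DESeq2 called 0. At an unadjusted p under 0.05 there was 1, ndufaf1, higher in Drug against FM, beside 12% of all genes higher. The gene ndufaf1, which helps to build the membrane arm, was at 20.4, 18.1 and 18.8 CPM in FM, 24.4, 19.5 and 21.1 CPM in SBM, and 28.1, 21.2 and 25.3 CPM in Drug. Drug lay just above FM with no overlap (log2 fold change 0.38 ± 0.16, adjusted p 0.183). The gene ndufaf4, which acts on early intermediates in mammals, spread as widely within SBM (4.35 to 8.58 CPM) as between groups.

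Complex II, succinate dehydrogenase, links the citric acid cycle to the chain and is encoded wholly by nuclear genes. The 3 subunit genes sdha, sdhb and sdhc were present. The gene sdhb, the iron-sulfur subunit, was at 37.5, 27.7 and 30.0 CPM in FM, 52.7, 40.1 and 48.7 CPM in SBM, and 56.8, 46.0 and 57.9 CPM in Drug. FM lay below both other groups without overlap, and sdhb rose in Drug against FM from 31.7 ± 5.12 to 53.5 ± 6.57 CPM (log2 fold change 0.75 ± 0.18, adjusted p 0.0476). The gene sdhc, a membrane anchor of the complex, was at 45.2, 38.0 and 41.4 CPM in FM, 64.6, 62.3 and 63.7 CPM in SBM, and 67.7, 56.8 and 61.5 CPM in Drug. It rose in Drug against FM by 0.58 ± 0.14 (adjusted p 0.0468), and the log2 fold change of 0.61 ± 0.14 in SBM against FM had an adjusted p of 0.0718.

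The flavoprotein gene sdha overlapped between groups: FM replicate 3, at 54.2 CPM, lay above SBM replicate 2 at 50.4 CPM and Drug replicate 1 at 53.0 CPM. Drug replicate 1, the highest library for most members, was the lowest Drug library for sdha. The 4 factors that assemble complex II (sdhaf1 to sdhaf4) had log2 fold changes of 0.036 to 0.35 in SBM against FM and 0.013 to 0.35 in Drug against FM, and none passed. Their median SE of 0.20 was as large as most of these values.

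In a ratio that does not depend on library scaling, assembly-factor counts over nuclear-subunit counts were 0.0214, 0.0199 and 0.0205 in FM, 0.0173, 0.0137 and 0.0151 in SBM, and 0.0162, 0.0158 and 0.0174 in Drug. The FM ratios lay above all others. The sign of the assembly factors themselves depended on scaling, with 8 of 12 positive in SBM against FM under TMM and 2 of 12 when library totals were used, which moves all genes. Relative to the median of all genes, their median was 0.039 under TMM and 0.050 with library totals.

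Of complex IV, the rule reached 3 genes of the ndufa4 family, named for complex I but now assigned to cytochrome c oxidase in mammals. Per length ndufa4a held 85.7% to 95.4% of the family's summed FPKM in each library. Its levels were 47.8, 52.6 and 91.7 CPM in FM, 80.7, 74.1 and 71.7 CPM in SBM, and 89.7, 116 and 115 CPM in Drug. FM replicate 3 departed from the other FM libraries and lay above the lowest Drug library. The log2 fold change of Drug against FM was 0.74 ± 0.25 (adjusted p 0.116), and ndufa4a passed in Drug against FM when FM replicate 3, the library with the hepatocyte markers, was left out. The part of those markers in its level was not tested. Drug lay above SBM without overlap (0.50 ± 0.25, adjusted p 0.418).

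The other copies were low and uneven. The gene ndufa4b ran from 4.42 to 14.0 CPM over all libraries, and ndufa4l2a, whose mammalian counterpart is induced by low oxygen, from 1.28 to 5.93 CPM. The latter had the largest negative log2 fold change among nuclear members against FM, -0.73 ± 0.64 in SBM and -0.53 ± 0.63 in Drug, well within its error.

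Complex V, ATP synthase, was covered by 16 nuclear genes, with mean levels per length of 46.9 FPKM for atp5l to 624 FPKM for atp5f1e. All 16 had positive log2 fold changes against FM in SBM (0.21 to 0.70, median 0.46) and in Drug (0.024 to 0.73, median 0.52). FM lay apart below in 15 and 14 of them, beside 11.1% and 16.6% of all genes. The catalytic beta subunit, atp5f1b, had the smallest p of all members in both. It was at 759, 689 and 728 CPM in FM, 1011, 1245 and 1287 CPM in SBM, and 1269, 1082 and 1120 CPM in Drug. The lowest SBM library, at 1011 CPM, lay above the highest FM library, at 759 CPM. It rose in Drug against FM from 725 ± 35.0 to 1157 ± 98.7 CPM, a log2 fold change of 0.67 ± 0.14 with an adjusted p of 0.0326. In SBM against FM the log2 fold change was 0.70 ± 0.14, with a 95% interval of 0.40 to 1.01 and an adjusted p of 0.0539. It passed in SBM against FM under a stricter filter on low counts (adjusted p 0.0470).

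The gene atp5pf, coupling factor 6 of the peripheral stalk, was at 55.4, 47.4 and 53.9 CPM in FM, 72.7, 79.3 and 82.9 CPM in SBM, and 107, 76.8 and 75.7 CPM in Drug. It rose in Drug against FM by 0.73 ± 0.17 (adjusted p 0.0483), with Drug replicate 1 well above the other Drug libraries, which overlapped SBM. The proton-carrying c subunit is encoded by several genes, of which atp5mc1 was at 352 to 396 CPM in FM, 460 to 604 CPM in SBM and 470 to 633 CPM in Drug. Its partner atp5mc3a was at 195 to 231, 261 to 309 and 290 to 381 CPM in the same order, so both copies lay lowest in FM (adjusted p for Drug against FM 0.0977 and 0.0585). Subunit g, atp5l, was the member of complex V with the smallest p in Drug against SBM: Drug libraries were at 40.6, 25.2 and 29.2 CPM and SBM libraries at 22.5, 23.4 and 24.1 CPM (0.44 ± 0.20, adjusted p 0.384).

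Members of complex V did not all lie higher to the same degree. The alpha subunit atp5fa1, which pairs with the beta subunit in the catalytic head, was at 466, 449 and 452 CPM in FM, 569, 642 and 670 CPM in SBM, and 573, 531 and 526 CPM in Drug. Its log2 fold change in Drug against FM was 0.25 ± 0.12 (adjusted p 0.249), where that of atp5f1b was 0.67. The ratio of atp5fa1 to atp5f1b was 0.614, 0.652 and 0.622 in FM, 0.563, 0.516 and 0.520 in SBM, and 0.452, 0.490 and 0.469 in Drug, with no overlap between any of the groups. The epsilon subunit gene atp5f1e, the highest nuclear member per length, was at 225 to 243 CPM in FM, 260 to 329 CPM in SBM and 210 to 277 CPM in Drug.

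The inhibitor of the enzyme, atp5if1b, which blocks ATP hydrolysis when the proton gradient fails, was at 150, 152 and 171 CPM in FM, 167, 200 and 181 CPM in SBM, and 182, 157 and 141 CPM in Drug, with overlap throughout. Its log2 fold change was 0.21 ± 0.16 in SBM against FM (95% interval -0.14 to 0.56), -0.19 ± 0.16 in Drug against SBM (-0.54 to 0.16) and 0.024 ± 0.16 in Drug against FM (-0.33 to 0.37). The interval in SBM against FM includes the complex V median of 0.46. Its ratio to atp5f1b was 0.198, 0.220 and 0.235 in FM, 0.165, 0.161 and 0.140 in SBM, and 0.144, 0.145 and 0.126 in Drug. All FM ratios lay above the others, and SBM and Drug overlapped. These ratios were chosen after the values were seen and carry no test.

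**Figure D2:**
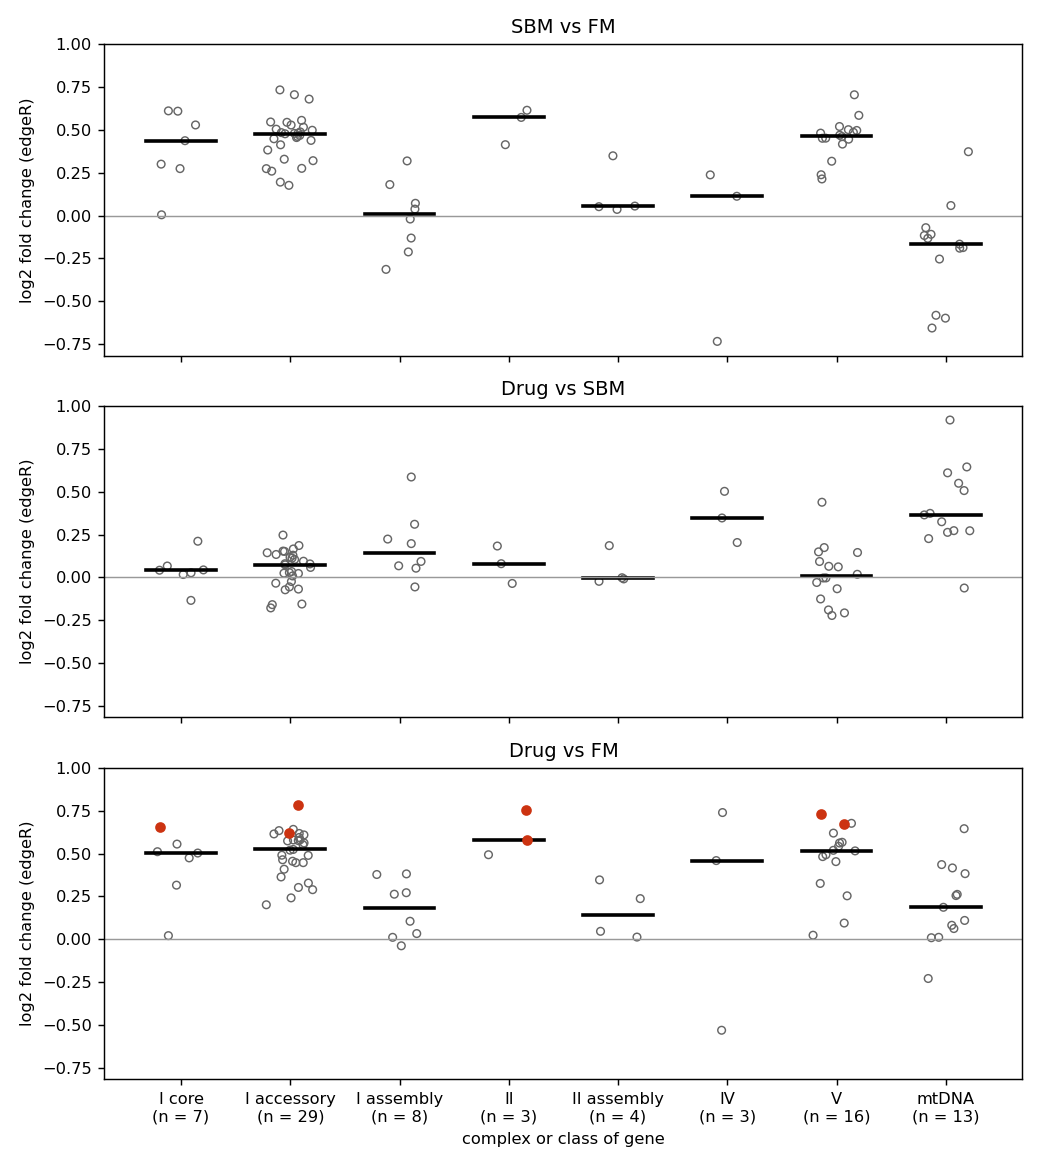
Log2 fold change of each of the 83 genes (points) by complex or class, in SBM vs FM, Drug vs SBM and Drug vs FM, with the median as a bar, the number of genes under each class and filled points for the 7 genes at an adjusted p under 0.05. Subunit genes of complexes I, II and V centre between 0.44 and 0.58 in both comparisons with FM and between 0.0075 and 0.080 in Drug vs SBM, while mitochondrially encoded genes (mtDNA) centre at -0.17, 0.36 and 0.19.

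Mitochondrial DNA is transcribed as long precursors from which the single messengers are cut, so levels of its genes share a source and also reflect the stability of each messenger. Mean levels per length ran in the order COX1 (10709 FPKM), COX3 (6075), COX2 (5584), ATP6 (4437), CYTB (3611), ND4 (1257), ND2 (1253), ND1 (1172), ND4L (886), ND3 (493), ATP8 (486), ND5 (309) and ND6 (23.5 FPKM). Over the 9 libraries, ranges of neighbours in this order were apart between COX1 and COX3, CYTB and ND4, and ND5 and ND6, and all other neighbours overlapped. ND4 exceeded ND2 in 4 libraries and ND3 exceeded ATP8 in 5, so neither pair has an order. ND6, encoded on the opposite strand in vertebrates, was the lowest in all 9 libraries. Counting is not stated to use strand, and ATP8 with ATP6 and ND4L with ND4 overlap in vertebrate mitochondrial DNA, so their counts are uncertain.

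In SBM against FM 11 of the 13 lay lower (median log2 fold change -0.17), and in Drug against SBM 12 of 13 lay higher (median 0.36), with COX1 the exception at -0.062. None passed edgeR's test in any comparison, and DESeq2 called 0. The largest difference was ND3, a membrane subunit of complex I: it was at 162, 140 and 240 CPM in FM, 69.1, 181 and 94.4 CPM in SBM, and 233, 170 and 247 CPM in Drug. SBM replicate 2 lay within the range of both other groups. The log2 fold changes were -0.66 ± 0.36 in SBM against FM (adjusted p 0.331) and 0.92 ± 0.36 in Drug against SBM (unadjusted p 0.0300, adjusted p 0.332).

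ND5, a proton-pumping subunit of complex I, had the same shape. It was at 684, 532 and 652 CPM in FM, 267, 585 and 396 CPM in SBM, and 655, 537 and 758 CPM in Drug, so that SBM replicate 2 again overlapped the other groups (Drug against SBM 0.64 ± 0.27, unadjusted p 0.0394, adjusted p 0.354). ND1 and ND2, further membrane subunits of complex I, were the mitochondrially encoded genes with no overlap between Drug and SBM, beside 9.2% of all genes higher and 10.7% lower in Drug without overlap. ND1 was at 788, 1265 and 908 CPM in SBM and 1379, 1306 and 1521 CPM in Drug (0.51 ± 0.24, adjusted p 0.399). ND2 was at 1008, 1393 and 1094 CPM in SBM and 1477, 1451 and 1570 CPM in Drug (0.36 ± 0.18, adjusted p 0.418).

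COX1, the catalytic subunit of cytochrome c oxidase, was the 1 gene of the 13 with a negative log2 fold change in Drug against FM. It was at 15171, 17396 and 21822 CPM in FM, 14606, 17875 and 15969 CPM in SBM, and 16900, 14745 and 14771 CPM in Drug, with overlap throughout (Drug against FM -0.23 ± 0.14, adjusted p 0.369). CYTB, the mitochondrially encoded subunit of complex III, was at 3556 to 5391 CPM in FM, 2820 to 4805 CPM in SBM and 4011 to 4662 CPM in Drug. ATP8, a small subunit of ATP synthase, had the smallest p of this class in Drug against FM: FM libraries were at 65.9, 40.9 and 85.0 CPM and Drug libraries at 122, 75.7 and 103 CPM (0.64 ± 0.27, adjusted p 0.191). ATP6, the proton channel subunit, was at 3121, 2020 and 3022 CPM in FM and 4049, 2985 and 3610 CPM in Drug, also with overlap (0.38 ± 0.20, adjusted p 0.290).

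**Figure D3:**
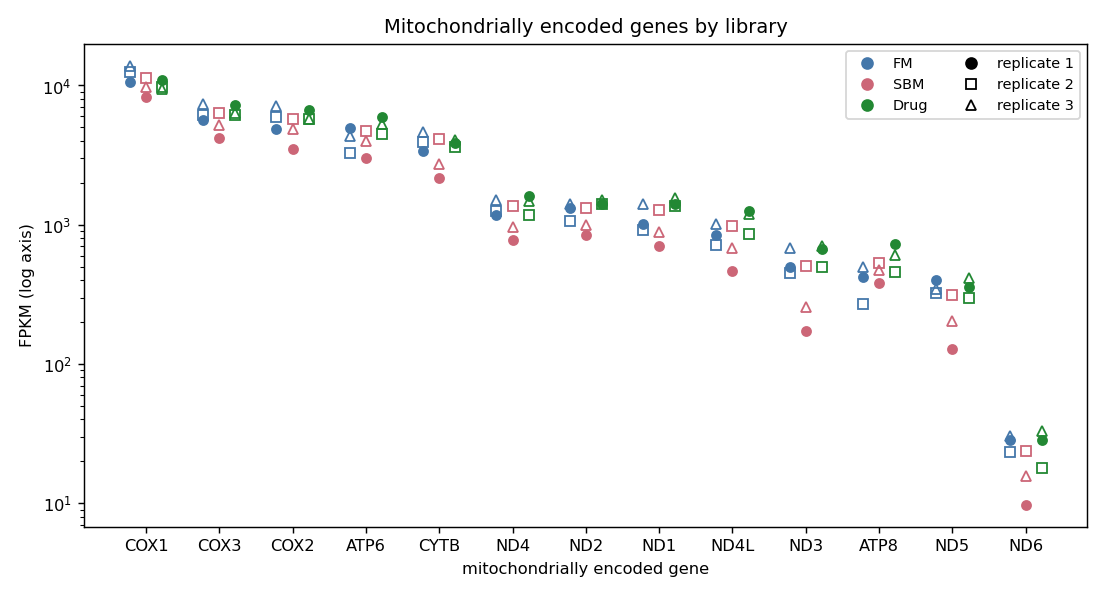
FPKM (log axis) of the 13 mitochondrially encoded genes in each library, ordered by mean level, with colour for the group and marker shape for the replicate number. The genes span from 10709 FPKM for COX1 to 23.5 FPKM for ND6, and within SBM replicate 2 (squares) is the highest and replicate 1 (filled circles) the lowest library for all 13.

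The direction in SBM against FM depended on which libraries were kept. FM replicate 3, with the hepatocyte markers, had the highest FM level in 11 of the 13. Without it, 7 of 13 lay higher in SBM than in FM in place of 2, with a median of 0.023, and without both it and SBM replicate 2 the count was again 2 (median -0.11). In Drug against FM, 9 to 12 of 13 lay higher with any 1 library left out (medians of 0.084 to 0.36). Within SBM, replicate 2 was highest and replicate 1 lowest for all 13. In Drug against SBM 12 of 13 lay higher also without SBM replicate 1 (median 0.25) and without Drug replicate 1 (median 0.27). The part of the hepatocyte content in the FM levels was not tested.

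Balances inside the chain do not depend on library scaling. Counts of the 13 mitochondrially encoded genes over those of the 70 nuclear genes were 6.19, 6.99 and 8.42 in FM, 4.44, 5.09 and 4.36 in SBM, and 4.85, 5.04 and 5.59 in Drug. FM lay above all other libraries, also without replicate 3. COX1 made up 44.8%, 48.7% and 46.0% of the mitochondrially encoded counts in FM, 48.8%, 43.7% and 46.8% in SBM, and 40.1%, 41.3% and 38.2% in Drug, where Drug lay below both other groups without overlap. Summed counts of the ND genes over those of the COX genes were 0.167 to 0.214 in FM, 0.166 to 0.209 in SBM and 0.227 to 0.275 in Drug. These ratios were likewise chosen with the values known.

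**Figure D4:**
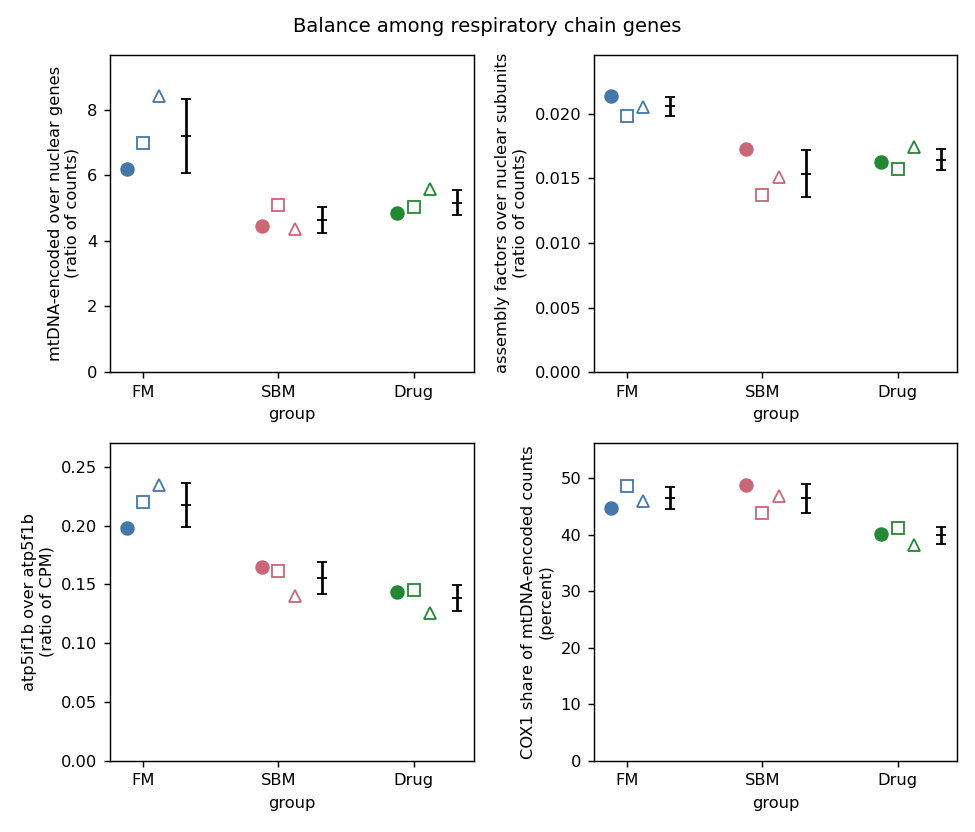
Ratios among respiratory chain genes in each library (colour for the group, marker shape for the replicate number), with the mean ± SD of the 3 libraries beside each group: mtDNA-encoded over nuclear counts, assembly factors over nuclear subunits, atp5if1b over atp5f1b, and the COX1 share of mtDNA-encoded counts. FM lies above SBM and Drug in the first 3 panels, and the COX1 share is 38.2% to 41.3% in Drug against 43.7% to 48.8% in the other libraries.

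Of the genes that serve the chain but lie outside the symbol rule, 18 further assembly genes (of 48 listed) were in the table, with median log2 fold changes of 0.11 in SBM against FM, 0.098 in Drug against SBM and 0.082 in Drug against FM. Among them 1 rose and 0 fell in Drug against FM (2.86% and 1.52% of all genes), and 0 passed in SBM against FM or Drug against SBM by edgeR. At an unadjusted p under 0.05, 1 was higher and 2 lower in SBM against FM, beside 10.9% and 9.67% of all genes. In Drug against SBM 3 were higher and 0 lower at that level, beside 5.15% and 7.97%. DESeq2 called 1 higher and 2 lower in SBM against FM, beside 5.39% and 3.45% of all genes. It called 1 higher in Drug against SBM, beside 1.27%, and 1 higher in Drug against FM, beside 7.75%. The gene that rose in Drug against FM, by edgeR and by DESeq2, was acad9, an acyl-CoA dehydrogenase that also assembles complex I in mammals. It was at 41.1, 29.0 and 39.5 CPM in FM, 49.5, 62.8 and 65.6 CPM in SBM, and 80.0, 63.9 and 66.8 CPM in Drug, with FM apart (Drug against FM 0.94 ± 0.19, adjusted p 0.0310). A pair of low assembly genes lay lowest in SBM. The gene lyrm7, which assembles complex III in mammals, was at 4.18 to 4.71 CPM in FM, 2.06 to 2.64 CPM in SBM and 3.12 to 4.29 CPM in Drug (adjusted p 0.0995 for SBM against FM). The gene atpsckmt, a lysine methyltransferase of the ATP synthase c subunit in mammals, was at 3.09 to 3.36, 1.58 to 2.02 and 3.46 to 4.43 CPM (adjusted p 0.0977 for SBM against FM and 0.118 for Drug against SBM).

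Of 14 coenzyme Q genes in the table (of 15 listed), 0 passed in any comparison by edgeR or by DESeq2. At an unadjusted p under 0.05 by edgeR there were 1, 1 and 2, all lower, beside 9.67%, 7.97% and 11.8% of all genes lower. The medians of the 14 genes were -0.010 in SBM against FM, 0.0024 in Drug against SBM and -0.093 in Drug against FM, the same order as those counts. The gene coq8b, a kinase-like protein of coenzyme Q synthesis, was at 49.2 to 63.0 CPM in FM, 49.1 to 61.2 CPM in SBM and 37.0 to 43.4 CPM in Drug, so Drug lay apart below (adjusted p 0.145 against FM). The 22 genes that copy and express mitochondrial DNA (of 29 listed) had medians of -0.23, 0.34 and 0.063, in the same order of comparisons. At an unadjusted p under 0.05 by edgeR, 4 of them were lower and 0 higher in SBM against FM (9.67% and 10.9% of all genes). In Drug against SBM 2 were higher and 0 lower (5.15% and 7.97%). In Drug against FM 1 was higher and 1 lower (12% and 11.8%). With edgeR 0 of the 22 passed after adjustment. DESeq2 called 1, mterf4, higher in Drug against FM, beside 7.75% of all genes. Among them ssbp1, which binds single-stranded mitochondrial DNA, was at 29.0 to 36.0 CPM in FM, 23.6 to 26.0 CPM in SBM and 25.0 to 28.6 CPM in Drug (adjusted p 0.154 for SBM against FM). The polymerase that transcribes mitochondrial DNA, polrmt, was at 11.4 to 13.6 CPM in FM and 8.35 to 10.6 CPM in SBM (adjusted p 0.178).

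Of 13 regulators of mitochondrial biogenesis in the table (of 20 listed), 10 were tested and 0 passed by edgeR or DESeq2. At an unadjusted p under 0.05 by edgeR, 2 were lower in SBM against FM, beside 9.67% of all genes. In Drug against SBM 1 was higher and 1 lower, beside 5.15% and 7.97%, and in Drug against FM there were 0. The medians of the 10 genes were 0.098, -0.064 and -0.025 in the same order. The nuclear receptor gene esrra, a regulator of respiratory chain genes in mammals, was at 33.5, 44.1 and 34.9 CPM in FM, 27.6, 23.7 and 25.9 CPM in SBM, and 34.2, 27.9 and 41.7 CPM in Drug. It lay lower in SBM than in FM without overlap (-0.55 ± 0.18, adjusted p 0.157), where the nuclear subunits lay higher. The gene nrf1, a transcription factor of nuclear respiratory genes in mammals, was at 13.1 to 14.2 CPM in FM, 12.1 to 18.2 CPM in SBM and 10.0 to 11.2 CPM in Drug, so it was lowest in Drug (adjusted p 0.229 against FM).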

How the data were processed

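Intestine RNA of 9 libraries (FM, SBM and Drug, 3 each) was sequenced after TRIzol extraction, per the labels' protocols. Tools named in the submitters' processing notes are HTSeq, HISAT2, fastp, R 3.2.0 and DESeq2, with no account of what each did, and the build named there is that of mouse, although the symbols are those of fish. No other source gives the reference genome, and alleles of a hybrid can be undercounted. The deposited counts are whole, unnormalized reads per gene. The deposited FPKM values were made by the authors and were used here to compare levels between genes and as an alternative for the test.

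The test was the robust quasi-likelihood F test of edgeR 4.0.16 (R 4.3.3) on the counts, with TMM factors, the default filterByExpr and all 9 libraries in 1 model of 3 groups and 6 residual degrees of freedom. It was two-sided, and p-values were Benjamini-Hochberg adjusted over the 17731 genes tested, all 83 members among them. A p under 0.05 after adjustment passed. SE is the size of the log2 fold change divided by the root of F, and intervals are 95% and cover the spread between libraries. Alternatives used DESeq2 1.42.0, limma 3.58.1 on log2(FPKM + 1), other factors and filters, a replicate block and left-out libraries. The test was checked on simulated counts, drawn independently for each gene and library from the fitted dispersions. That check does not cover deviations that libraries or genes share.

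Same-numbered FM and SBM libraries deviated together (correlations of 0.204, 0.290 and 0.150), so the numbers may pair these groups, although the labels do not say so and the pairing was not tested. The main fit did not use such a pairing. Its SE, intervals and p-values are those given for single genes, and the replicate block is an alternative. Replicates differed far beyond sampling noise (chi-square per degree of freedom 59.1 to 358).

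Members and lists were chosen with earlier results of these data known. Named genes were taken from members that passed, the 2 with the smallest p per complex and comparison, the 2 most abundant per complex, the 3 largest differences in each direction, all mitochondrially encoded genes, families with several copies, and, outside the rule, genes that passed or had the 2 smallest p of their list. The genes sdha, ndufs8a and ndufs8b were added after their values were seen. A gene that this rule names is not reported here.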

Additional observations from a re-analysis of the deposited data

How the results depend on the processing

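No member reversed its direction while called in any alternative, but members that were not called did change sign. In Drug against SBM atp5f1b had the opposite sign in 8 alternatives. In SBM against FM ATP6 did so in 6 and ndufa4b in 7, and in Drug against FM CYTB in 7 and ND6 in 8. Members passing in SBM against FM, 0 under edgeR with TMM, were 14 with DESeq2, 1 with the stricter filter (at least 1 CPM in 3 libraries), 4 without both SBM replicate 1 and Drug replicate 1 (chosen after seeing the data), and 0 to 3 with 1 library left out. In Drug against SBM they were 0 throughout. In Drug against FM, 7 became 28 with DESeq2, 0 with library totals, 2 with no filter, 1 with limma on log2(FPKM + 1), log2(FPKM + 0.1) or unfiltered FPKM, 3 without both FM replicate 3 and SBM replicate 2, 1 without both SBM replicate 1 and Drug replicate 1, and 0 to 14 with 1 library left out. Of the 3 members passing without FM replicate 3 and SBM replicate 2 (ndufs3, ndufa4a and ND1), only ndufs3 was among the 7. The 7 calls had folds of 1.49 to 1.72, and none of them held in every alternative.

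The median of nuclear members in SBM against FM was 0.27 with library totals and 0.26, 0.27 and 0.26 with the 3 FPKM settings. The median of all genes also moved, to -0.18, -0.10, -0.17 and -0.043 in these settings. Relative to all genes the nuclear medians were 0.45, 0.36, 0.43 and 0.31, beside 0.44 in the main fit. In Drug against SBM it was -0.12 without both SBM replicate 1 and Drug replicate 1, and -0.082 to 0.13 with 1 library left out. In Drug against FM it was 0.37 without both, and 0.35 to 0.56 with 1 left out. Medians of mitochondrially encoded members with 1 library left out were -0.32 to 0.023, 0.25 to 0.53 and 0.084 to 0.36.

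Over all genes, 105 passing in SBM against FM became 1597 with DESeq2, 183 with the stricter filter, 0 with 2 groups in the model, 295 with the replicate block, 47, 54 and 17 with the FPKM settings, 330 without FM replicate 3 and SBM replicate 2, 386 without SBM replicate 1 and Drug replicate 1, and 2 to 424 with 1 left out. For Drug against SBM, 7 became 614 with DESeq2, 0 with library totals, 0 with 2 groups, 1 with the block, 1, 0 and 1 with FPKM, 0 and 3 without the same pairs of libraries, and 0 to 36 with 1 left out. For Drug against FM, 777 became 2431 with DESeq2, 1578 with 2 groups, 1293 with the block, 420 with unfiltered FPKM, 1199 without FM replicate 3 and SBM replicate 2, and 10 to 1711 with 1 left out.

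Same-numbered libraries also deviated together between Drug and FM (correlations of 0.113, 0.114 and 0.0391). Between Drug and SBM the correlations were 0.0269, 0.178 and 0.282. Libraries with different numbers ran from -0.207 to 0.0319, so only the lowest Drug and SBM value lay within that range. Deviations were taken from each group's mean and cancel within the group, so a positive same-number correlation pushes the others down. The range of different numbers is therefore no independent yardstick. In all, 17 of 18 best matches between groups shared the number, but each pair of libraries was counted from both sides. Whether the numbers pair libraries is thus not settled by these values. With the replicate block 8 members passed in Drug against FM, and 0 in the other comparisons.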

Other observations

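The most abundant gene of the assembly list, higd1a, named after its values were seen, encodes a small inner-membrane protein that binds cytochrome c oxidase and is induced by low oxygen in mammals. It was at 2898, 1972 and 1622 CPM in FM, 4460, 1006 and 2000 CPM in SBM, and 2073, 1345 and 1707 CPM in Drug. Its highest and lowest libraries were both SBM, so no difference between groups stood out (SBM against FM 0.20 ± 0.48, adjusted p 0.844). SBM replicate 1, the highest for higd1a, was also the highest for the related higd2a, at 79.3 CPM against 30.7 to 44.8 CPM elsewhere, and the lowest for 10 of the 13 mitochondrially encoded genes. This is 1 library, which also had the highest summed stress genes (2970 CPM). Any link between these levels was not tested.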
